A study of Mus musculus with 8 samples.

Results

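The regions described here are stretches of chromatin that carried a called ATAC-seq peak in splenic natural killer (NK) cells of mice with a mutant heat shock factor 1 (HSF1) and no called peak in those of wild-type mice. Merging all peaks of the 8 libraries that share 1 bp or more gave 55946 regions. A region was counted as gained when it had a peak in 3 or 4 of the 4 mutant libraries and in 0 of the 4 wild-type libraries, and 890 regions met this (1.59% of all merged regions). Of these, 292 had a peak in all 4 mutant libraries and 598 in exactly 3. The presence of peaks chose these regions, so their presence, lengths and scores are given below as descriptions without a test. The WT group was 4 mice of wild-type genotype (replicates 4, 5, 6 and 7). The MUT group was 4 mice of genotype HSF1-S303/7A, in which serines 303 and 307 of HSF1 are replaced by alanine (replicates 26, 27, 28 and 29). Per the labels' protocols, the mice were at steady state, each mouse was its own library, and 200000 cells sorted as CD49b+ and CD3e- after bead enrichment entered each assay. Age, sex, strain and litter are not in the labels, and the mutation is not described as restricted to NK cells. Any other difference between the 2 sets of mice cannot be told apart from the HSF1 genotype.

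NK cells are innate lymphocytes that kill stressed, infected or transformed cells and secrete interferon gamma. HSF1 is the main transcription factor of the heat shock response. It binds heat shock elements and drives genes of chaperones such as HSP70 and HSP90, and phosphorylation at serines 303 and 307 is known to restrain its activity. In ATAC-seq a transposase cuts accessible DNA, so a called peak marks a promoter, an enhancer or another stretch of open chromatin. In a bulk library, opening in more cells and wider opening in each cell cannot be told apart, and a peak that was not called is not proof of closed chromatin.

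Few of the gained regions lay at a transcription start. RefSeq promoter windows (GRCm38.p6, the mm10 build of the files) run from 250 bases before a gene's start to 50 bases after it. Of the 890 gained regions, 30 (3.37%) overlapped such a window, 8 of the 292 and 22 of the 598, against 26.3% of regions with a peak in all 8 libraries and 5.13% of those with a peak in 2 to 7 libraries. The parts of 6 windows that lie before the start and inside a gained region are shown here. Shisa4, Ddr1 and Lbhd2 were gained in all 4 MUT libraries, and Cyp2j9, Kitl and Ces2c in exactly 3. Lbhd2 and Kitl were chosen after their values were seen, because their windows hold an ETS motif. Each is written 5′ to 3′ on the gene's strand, and capitals mark a motif match, the ETS family core in Lbhd2 and Kitl and the heat shock element core in Ces2c.
Shisa4, chr1:135375064-135375313, minus strand: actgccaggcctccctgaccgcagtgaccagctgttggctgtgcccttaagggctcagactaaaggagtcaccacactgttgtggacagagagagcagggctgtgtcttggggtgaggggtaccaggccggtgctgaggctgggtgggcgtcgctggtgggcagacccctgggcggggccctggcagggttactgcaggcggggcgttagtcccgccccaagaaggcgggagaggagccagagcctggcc
Ddr1, chr17:35704610-35704849, minus strand: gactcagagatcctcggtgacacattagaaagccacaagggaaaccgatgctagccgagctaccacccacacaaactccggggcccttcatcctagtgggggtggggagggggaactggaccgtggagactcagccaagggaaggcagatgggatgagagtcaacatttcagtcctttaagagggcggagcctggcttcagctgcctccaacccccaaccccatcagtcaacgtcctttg
Lbhd2, chr12:111406644-111406808, plus strand: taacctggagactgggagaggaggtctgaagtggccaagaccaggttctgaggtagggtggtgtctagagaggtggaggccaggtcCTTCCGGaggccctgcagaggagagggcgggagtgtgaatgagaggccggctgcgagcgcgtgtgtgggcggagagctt
Cyp2j9, chr4:96591486-96591735, minus strand: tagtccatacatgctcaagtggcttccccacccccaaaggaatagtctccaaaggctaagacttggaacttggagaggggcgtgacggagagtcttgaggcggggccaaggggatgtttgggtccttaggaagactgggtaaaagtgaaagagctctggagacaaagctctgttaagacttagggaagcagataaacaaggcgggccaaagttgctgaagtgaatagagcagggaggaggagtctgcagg
Kitl, chr10:100015571-100015820, plus strand: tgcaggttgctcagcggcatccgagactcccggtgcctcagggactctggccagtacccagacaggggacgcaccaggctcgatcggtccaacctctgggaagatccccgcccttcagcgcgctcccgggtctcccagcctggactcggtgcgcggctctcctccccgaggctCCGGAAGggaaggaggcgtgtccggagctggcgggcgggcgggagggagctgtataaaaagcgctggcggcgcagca
Ces2c, chr8:104846916-104847067, plus strand: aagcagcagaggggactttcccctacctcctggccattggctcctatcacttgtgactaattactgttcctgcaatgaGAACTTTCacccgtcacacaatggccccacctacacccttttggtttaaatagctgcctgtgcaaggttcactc

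Of these genes, Ddr1 encodes a receptor tyrosine kinase for collagen, Cyp2j9 a cytochrome P450 of the arachidonic acid epoxygenase family, Kitl the ligand of the receptor KIT, and Ces2c a carboxylesterase. The 250 bases before each start were searched on both strands for the heat shock element core GAANNTTC, AP-1 (TGANTCA), the ETS family core CCGGAAG, RUNX (TGTGGTT) and T-box (TCACACC), with N for any base. These letters were counted independently, so 1 stretch could count for more than 1 motif. The heat shock element core was in 1 of the 30 windows (3.33%), that of Ces2c, against 6.69% of all 32851 windows. AP-1 was in 1 of 30 (3.33% against 6.75%), ETS in 2 (6.67% against 6.91%), RUNX in 2 (6.67% against 4.40%) and T-box in 3 (10.0% against 3.33%). Each of these shares rests on 1 to 3 promoters, too few to set the 30 windows apart from all windows. The median GC content of the 250 bases was 55.0% in the 30 windows, 52.4% in all windows and 61.2% in windows at regions open in all 8 libraries. A genome sequence was not used here, so the letters of gained regions away from a start were not searched.

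Of 1005 RefSeq microRNA hairpins, 90 overlapped a region with a peak in 2 or more libraries and 1 of these overlapped a gained region, where 1.78% of all such regions were gained. This was Mir30a on chromosome 1 (hairpin 23272269 to 23272339, plus strand), whose gained region (23272159 to 23272461) had a peak in all 4 MUT libraries with a mean score percentile of 34.4. miR-30a belongs to a broadly expressed microRNA family. The peak covers the hairpin's own DNA and gives no level of the mature strands, which are shown with the seed (bases 2 to 8) in capitals.
mmu-miR-30a-5p: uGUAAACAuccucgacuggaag
mmu-miR-30a-3p: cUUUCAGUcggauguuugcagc

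The NK cell identity of the libraries was checked at marker genes. All 10 NK marker genes, among them Ncr1, Eomes, Gzmb and Prf1, had a peak within 1 kb of a gene end in all 8 libraries. Of 6 B cell markers none did, with 1 to 3 open per WT library and 0 to 4 per MUT library. Of 6 myeloid markers 2, Cd14 and Itgax, were open in all 8 libraries and Csf1r, Lyz2, Adgre1 and S100a8 in none. Of 6 T cell markers 4 were open in all 8, including Cd3d, Cd3e and Cd3g, while Cd8a had no peak at a gene end in any. Of 4 basophil and mast cell markers none was open in all 8 libraries, with 0 to 2 per WT and 1 to 2 per MUT library. Of 6 erythroid and platelet markers 3 were, Klf1, Epor and Itga2b. Some single markers differed between the genotypes. Cd79a was open in 4 WT and 1 MUT libraries, while Cd4 (1 and 3), Ebf1 (1 and 3) and Mcpt8 (2 and 4) went the other way. No gained region was linked to any of the marker genes by a gene end within 50 kb. A gained region in exactly 3 MUT libraries did lie inside the B cell marker Ebf1, farther from its ends (mean percentile 27.7). The WT lists held 42695 to 46102 peaks and the MUT lists 44333 to 49627, a mean difference of 1636 peaks (exact two-sided permutation test, p = 0.371, with 0.0286 the smallest p that 4 against 4 allows).

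Regions present in the mutant lists only outnumbered those present in the wild-type lists only. The mirror rule, a peak in 3 or 4 WT libraries and in 0 MUT libraries, gave 305 lost regions, 89 in all 4 WT libraries and 216 in exactly 3. Of the 50044 regions with a peak in 2 or more libraries, 1.78% were gained and 0.609% lost. Among the 2526 regions with a peak in exactly 3 libraries, whichever these were, 23.7% (95% exact binomial interval 22.0 to 25.4%) were MUT-only and 8.55% (7.49 to 9.71%) WT-only. Among the 2347 with a peak in exactly 4 libraries the shares were 12.4% (11.1 to 13.8%) and 3.79% (3.06 to 4.65%). These intervals cover counting error only, and neighbouring regions of 1 mouse are not independent.

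The excess of gained over lost regions varied with the peaks and libraries used. With the 42695 highest-scoring peaks taken from each list, 651 regions were gained and 446 lost, so gained regions went from 2.92 to 1.46 times the lost ones. Of the 890 regions, 616 were still gained. Leaving out 1 library also loosens the rule for its genotype, so these ratios mix both changes. Without WT 4, 5, 6 and 7 the ratio was 1.88, 2.19, 1.86 and 1.27, and without MUT 26, 27, 28 and 29 it was 4.34, 1.86, 3.23 and 4.17. Every setting run had more gained than lost regions, but not always the same regions. With the upper 50% of each list, 520 were gained and 223 lost, and only 27 of the 520 were among the 890.

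**Figure D1:**
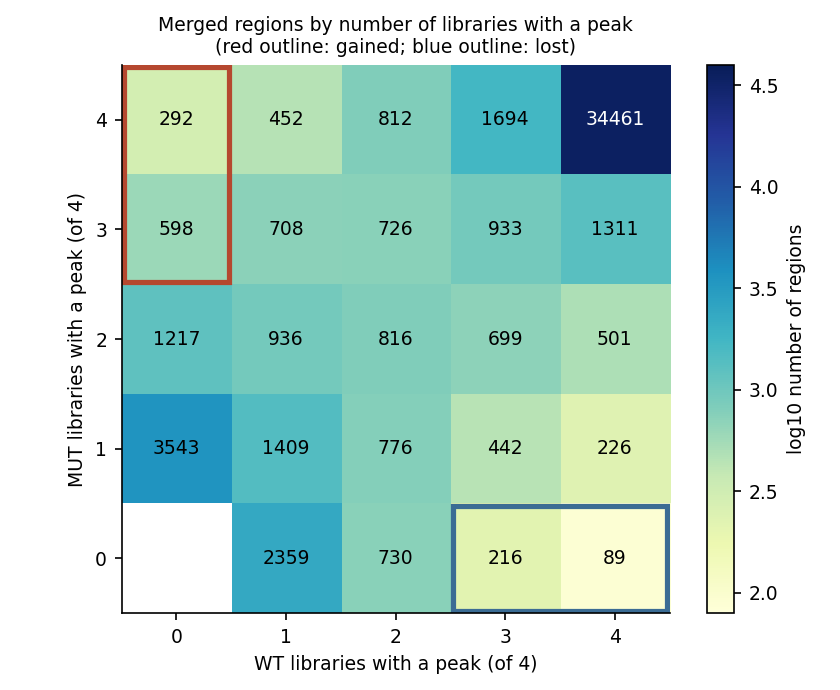
Number of merged regions by how many of the 4 WT libraries (horizontal axis) and of the 4 MUT libraries (vertical axis) had a peak there, with colour giving the log10 number. The red outline holds the 598 and 292 gained regions and the blue outline the 216 and 89 lost regions, while 34461 regions had a peak in all 8 libraries.

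Regions just outside the rule were similar in strength to those just inside it. The authors' lists give each peak a score, which was ranked within its own list, so a percentile of 50 is the middle of that library. The 598 regions in exactly 3 MUT libraries had a median percentile of 18.3, and the 292 in all 4 one of 23.5. Just outside, the 1217 regions with 2 MUT and 0 WT libraries had a median of 15.2. The 708 with 3 MUT and 1 WT libraries had 18.6, and the 452 with 4 MUT and 1 WT libraries 24.3. Regions open in all 8 libraries had a median percentile of 61.4.

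Most gained peaks were short and stood low in their lists. MUT 26 had a peak at 730 of the 890 regions, MUT 27 at 804, MUT 28 at 768 and MUT 29 at 660. MUT 29 was thus the library most often without a peak among the 598 regions, lacking 230 of them, against 160 in MUT 26, 86 in MUT 27 and 122 in MUT 28. The median score percentile of these peaks was 17.2, 22.3, 18.9 and 15.5 in the same order of libraries. Their median length was 244, 263, 244 and 234 bp, whereas the medians of the whole lists were 409, 409, 411 and 398 bp. The shortest peak in any list was 200 bp, and 8.46 to 19.5% of the gained peaks had this length, against 3.14 to 4.25% of all peaks. The upper 50% of a list held 5.75% of the gained peaks in MUT 26, 5.97% in MUT 27, 5.47% in MUT 28 and 2.73% in MUT 29. Low rank was the common state of gained regions in each of the 4 mice, and the strong members described next are exceptions.

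**Figure D2:**
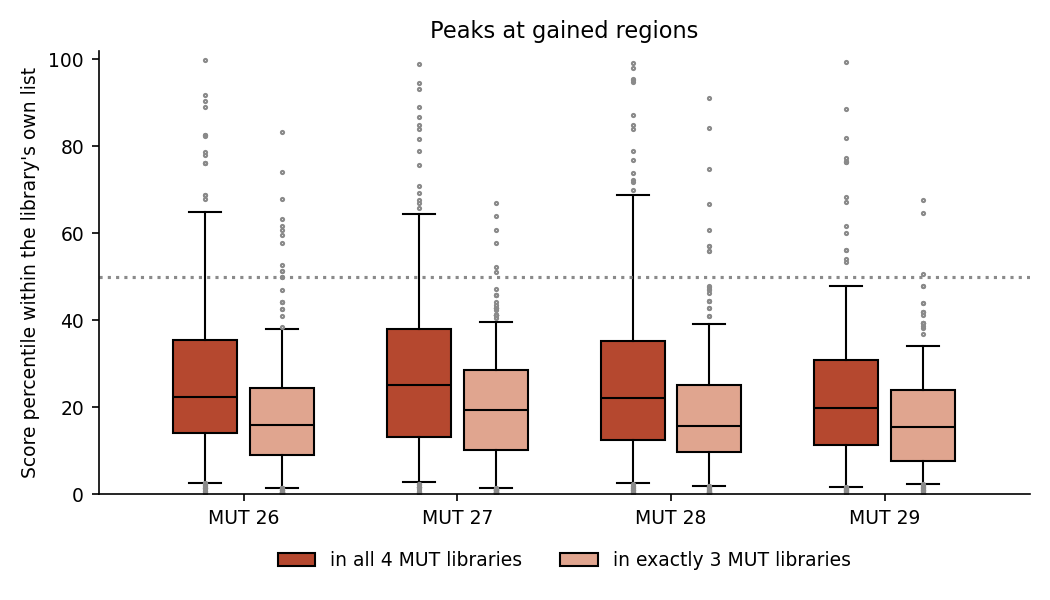
Score percentile of the peaks at gained regions within each MUT library's own list (vertical axis, 0 to 100), for regions in all 4 MUT libraries (dark) and in exactly 3 (light). Boxes span the quartiles with the median, whiskers the 5th to 95th percentiles, points lie beyond them, and the dotted line marks the middle of a list, above which few peaks lie.

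A small set of gained regions ranked high in the lists on average, though not always in every mouse. The mean score percentile was above 50 for 31 gained regions, of which 25 were in all 4 MUT libraries, against 5 lost regions. Of the 31, 10 were on chromosome 4, 16 lay in gene bodies, 13 between genes and 2 at gene ends. The strongest lay in the body of Stpg2, a gene named for a sperm tail protein (chromosome 3, 139564113 to 139564689). Its peak was 545, 505, 568 and 472 bp long in MUT 26, 27, 28 and 29 and stood at percentile 99.96, 98.9, 99.2 and 99.5 of those lists, among the highest scores of each mouse. The nearest WT peak was 317233 bp away.

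Gained regions with high mean percentiles also included those of Mttp, Lpl, Cyp2j6 and Cyp2j9. Mttp encodes the microsomal protein that loads triglyceride onto apolipoprotein B, and the region in its body (chromosome 3, 138098299 to 138098693) was 370, 345, 334 and 380 bp long (357 ± 21.4 bp, SD, n = 4 mice, as in all values below). The region nearest to Lpl, the gene of lipoprotein lipase, lay 47022 bp from a gene end (chromosome 8, 68953954 to 68954394) and measured 356, 436, 377 and 422 bp (398 ± 37.5 bp). In Cyp2j6, which like Cyp2j9 belongs to the CYP2J family, the stronger of its regions measured 397, 413, 494 and 418 bp (431 ± 43.3 bp). In Cyp2j9 the stronger region measured 445, 437, 397 and 369 bp (412 ± 35.5 bp), with score percentiles of 77.9, 81.7 and 84.0 in MUT 26, 27 and 28 and 36.8 in MUT 29. These lengths overlapped between the genes, and MUT 29 had the lowest score in Cyp2j9 but not in Cyp2j6, where it stood at 77.3.

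Further strong regions lay between genes or in long gene bodies. On chromosome 18 a region at 55418890 to 55419751, 426299 bp from the nearest protein-coding gene end, had a mean percentile of 92.9 and lengths of 454, 678, 613 and 622 bp, lowest in MUT 26. In the body of Spink13, a Kazal-type protease inhibitor gene (chromosome 18, 62719628 to 62720389), the lengths were 741, 714, 733 and 691 bp at a mean percentile of 81.1. In Dab1, the adaptor of reelin signalling (chromosome 4, 103711274 to 103711952), they were 377, 527, 624 and 511 bp at a mean percentile of 77.2. Beside Map3k7, the gene of the kinase TAK1, the region 39123 bp from the gene (chromosome 4, 32062593 to 32063051) had 424, 420, 459 and 424 bp and a mean percentile of 87.8. A neighbour between genes (32099436 to 32099823) had 366, 376, 384 and 377 bp at 88.3. Of all gained regions the longest was a further neighbour (32164355 to 32165283), with 922, 914, 891 and 660 bp but a mean percentile of only 36.4. Next in mean length came the region in Sh3rf1, a scaffold gene of JNK signalling (chromosome 8, 61305415 to 61306287), with 786, 868, 766 and 673 bp. MUT 29 was the lowest library at these last 2 regions.

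**Figure D3:**
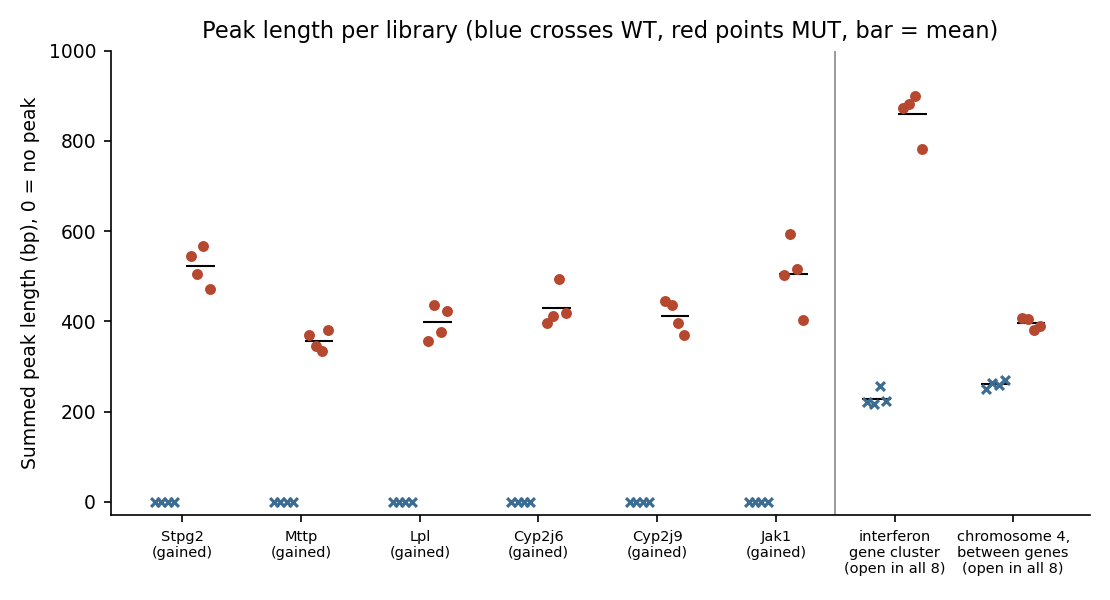
Summed peak length in bp (vertical axis) in each WT library (blue crosses) and MUT library (red points), with the mean as a bar and 0 where no peak was called. The 6 gained regions on the left have no WT peak by the rule, while the 2 regions on the right were open in all 8 libraries, at 216 to 269 bp in WT and 382 to 900 bp in MUT.

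Gained regions lay mostly away from gene ends. Within 1 kb of an end of a protein-coding gene were 83 of the 890 (9.33%, exact interval 7.50 to 11.4%), in gene bodies 474 (53.3%) and between genes 333 (37.4%). For the 292 in all 4 MUT libraries the gene-end share was 7.53%, and for the 598 it was 10.2%. It was 13.1% among all 15583 regions with a peak in 2 to 7 libraries, 13.0% among those with 3 or 4 libraries, 13.1% among lost regions, and 32.6% among regions open in all 8 libraries. The interval of the gained share lies below the 13.1% of regions with 2 to 7 libraries, of which gained regions are themselves a part. A low share is not particular to gained regions. Regions with a peak in all 4 MUT libraries and 1 WT library had 7.52% at gene ends, and those with 4 MUT and 2 WT libraries 10.3%. More than 50 kb from any gene end were 245 gained regions (27.5%, 24.6 to 30.6%), against 20.6% of regions with 2 to 7 libraries. The gene-end share was 5.51% with a limit of 500 bp and 14.3% with 2000 bp.

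**Figure D4:**
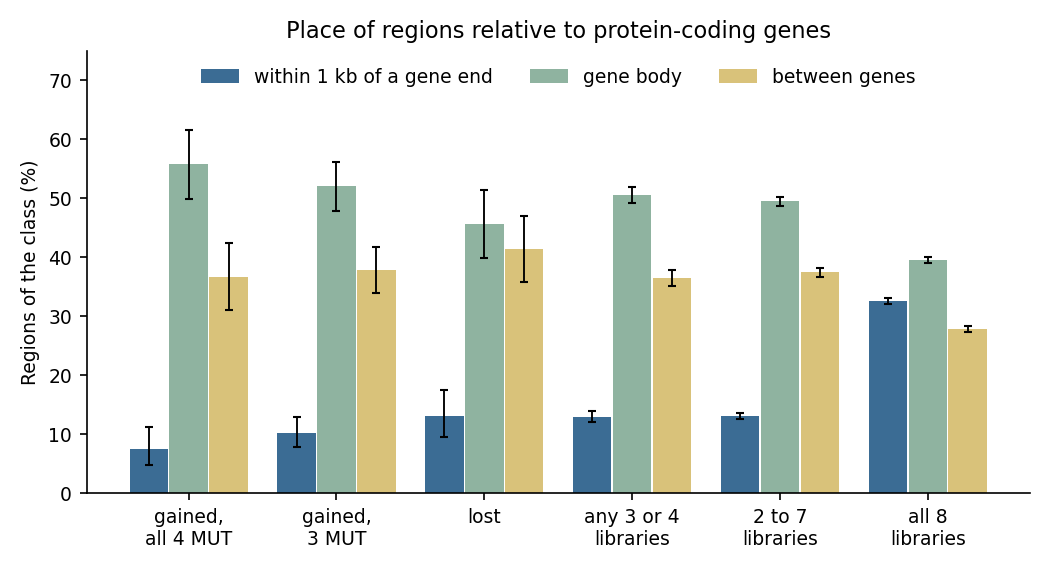
Share of regions (percent, vertical axis) within 1 kb of a protein-coding gene end, in gene bodies and between genes, for gained and lost regions and for regions grouped by the number of libraries with a peak. Bars start at 0 and error bars are 95% exact binomial intervals, with the gene-end share at 7.53% for regions gained in all 4 MUT libraries and 32.6% for regions open in all 8.

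Most gained regions lay within 10 kb of chromatin that was open in wild-type mice too. The median distance to the nearest WT peak was 6806 bp, and 57 of the 890 (6.40%) lay within 200 bp of one, 180 (20.2%) within 1 kb and 547 (61.5%) within 10 kb. Such closeness was not particular to gained regions. For lost regions the median distance to the nearest MUT peak was 3415 bp, with 8.52% within 200 bp, 26.9% within 1 kb and 69.5% within 10 kb. At the other extreme, 38 gained regions (4.27%) had no WT peak within 100 kb and 6 none within 500 kb, against 11 (3.61%) and 2 of the lost regions. The spans named next were chosen as stretches without a WT peak that hold a gained region. Every region in them is therefore MUT-only by construction, and their gained counts are descriptions. On chromosome 4, no WT library had a peak between 95967773 and 97486364. This span held 5 regions of any library, of which 4 were gained, in Cyp2j6 and Cyp2j9. On chromosome 3, the WT lists had no peak between 139246881 and 141464886, and 3 of the 5 regions there were gained, all in Stpg2. On chromosome 4, both regions in the span from 103351396 to 104669441 were gained and lay in Dab1. On chromosome 16 a span with 2 gained regions in Rbfox1, a neuronal splicing factor gene named after its values were seen, ran from 5352601 to 7419572.

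Gained regions were spread over all autosomes and were denser on some stretches. By chromosome their share of regions with 2 or more libraries on the autosomes and X ran from 0.975% on X (10 of 1026) to 2.46% on chromosome 4 (75 of 3053, exact interval 1.94 to 3.07%), with chromosome 18 at 2.44% (37 of 1514). The Y chromosome had 7 such regions and 0 gained. In 247 windows of 10 Mb with at least 50 regions the median share was 1.54%, and 7 windows exceeded 5%. Of these 7, 3 adjoin on chromosome 4 from 80 to 110 Mb, and together they held 33 gained of 485 regions (6.80%, 4.73 to 9.42%) and 3 lost. Elsewhere in the genome the gained share was 1.73%. This stretch, chosen after its values were seen, holds the interferon, Cyp2j, Ror1, Jak1 and Dab1 regions and 7 of the 31 strong ones. The window with the highest share was on chromosome 8 from 60 to 70 Mb, with 10 gained of 117 regions (8.55%), among them those of Sh3rf1 and Lpl. On chromosome 18 from 50 to 60 Mb, 11 of 149 were gained (7.38%), including those in Lmnb1. No lost region lay in either of these last 2 windows, but only 0.609% of regions were lost genome-wide. Windows of this size are too small to differ from that share by having none.

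**Figure D5:**
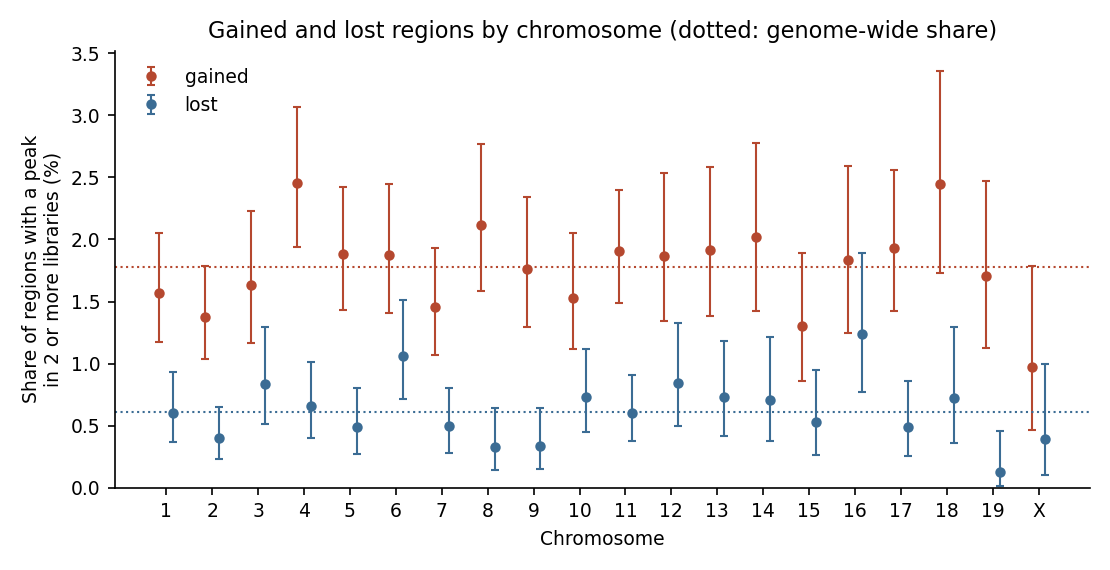
Share (percent, vertical axis) of regions with a peak in 2 or more libraries that were gained (red) or lost (blue) on each chromosome, with 95% exact binomial intervals and dotted lines at the genome-wide 1.78% and 0.609%. The gained share is highest on chromosome 4 (2.46%) and lowest on X (0.975%), and it exceeds the lost share on every chromosome shown.

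Some gained regions came in groups. With gaps of at most 50 kb, 742 stood alone, 59 groups had 2 members, 7 had 3, 1 had 4 and 1 had 5. The group of 5, on chromosome 1, included 2 regions linked to Lefty1, an antagonist of nodal signalling. The first (180922292 to 180922698) had 209, 263, 238 and 212 bp at a mean percentile of 20.6, and the second (180936617 to 180937105) had 358, 473 and 487 bp at 27.3 and no peak in MUT 29. Both were weak, below the middle of their lists. The group of 4 was that of Cyp2j6 and Cyp2j9 (chromosome 4, 96551580 to 96592035), where no other region had a peak in 2 or more libraries. Its other members were a second region in Cyp2j6 (266, 315 and 269 bp, no peak in MUT 26) and the promoter region of Cyp2j9 shown above (498, 211 and 955 bp, no peak in MUT 29).

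The groups of 3 included immune and structural genes. On chromosome 1 (171562530 to 171610368) the group spanned Cd244a, which encodes the NK receptor 2B4, and Ly9, another receptor of the SLAM family, with mean percentiles of 2.68 to 26.9. On chromosome 4 (88760493 to 88806161) all 3 members lay at ends of predicted genes beside Ifnz in the type I interferon gene cluster, and all 3 were in all 4 MUT libraries. Their lengths were 289 to 299 bp in the first, 219 to 284 bp in the second and 277 to 346 bp in the third. In Lmnb1, the gene of lamin B1, 2 of 3 members were in all 4 libraries, and the strongest measured 410, 418, 406 and 367 bp. The remaining groups lay in Sh3rf1, at Sipa1l2 (a regulator of Rap GTPases), in the receptor gene Ror1, and near Cradd, a death-domain adaptor. The interferon cluster and the CYP2J genes hold near-identical copies, and how reads that match several copies were placed is not stated in the labels, so which copy was open is uncertain.

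At gene ends, 22 regions were gained in all 4 MUT libraries, and the named ones were at Shisa4, Glrx2 (a mitochondrial glutaredoxin), Tmem141, Olfml3 (a secreted olfactomedin-like protein), Mycl (a MYC-family transcription factor), Oprd1 (the delta opioid receptor), Klhl25, Ctsd (the lysosomal protease cathepsin D), Nnmt (which methylates nicotinamide), Rpl29 (a ribosomal protein), Cep68 (a centrosomal protein), Ppp2r5c (a regulatory subunit of the phosphatase PP2A), Atf6b (a factor of the unfolded protein response) and Ddr1. Most were short. Glrx2 had 203, 251, 200 and 200 bp, close to the shortest peak length in 3 of 4 mice. Shisa4 had 214, 216, 489 and 210 bp and was long in MUT 28 only. Ddr1 had 406, 384, 419 and 222 bp, and Nnmt had 321, 407, 656 and 200 bp, both with the shortest peak in MUT 29. Tmem141 (344, 372, 229 and 324 bp) was shortest in MUT 28, and Olfml3 (241, 260, 286 and 242 bp) varied little between mice. Mean percentiles ran from 1.43 at Cep68 to 27.8 at Olfml3 among these named genes. Those at Klhl25, Ppp2r5c, Cep68, Mycl and Tmem141 lay within 500 bp of a WT peak, at 136, 174, 272, 251 and 472 bp.

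Among regions in exactly 3 MUT libraries, the strongest were again mostly far from gene ends. The region with the highest mean percentile (79.7) lay 49156 bp from Rrm2b, a ribonucleotide reductase subunit gene (chromosome 15, 37874189 to 37874796). It measured 485, 608 and 500 bp in MUT 26, 28 and 29 and had no peak in MUT 27, the mouse with the longest list. A region in Gfra1, the co-receptor gene of glial cell line-derived neurotrophic factor (chromosome 19, 58261214 to 58261990), measured 708, 646 and 777 bp and had no peak in MUT 29. A region within Fgf2, which overlaps Nudt6, measured 361, 344 and 373 bp, also without a peak in MUT 29. Others of the 10 lay in Adamtsl1 and 25087 bp from Odc1, the gene of ornithine decarboxylase. At gene ends the highest percentiles among the named genes belonged to Poldip2 (35.0), Fam241a (28.7), Vmn2r97 (28.5), Ces2c (28.2), Akr1c12 (26.1), Arl14epl (26.0), Pilrb2 (25.3) and Lexm (25.2). Ces2c and Akr1c12 encode a carboxylesterase and an aldo-keto reductase, and Vmn2r97 a vomeronasal receptor. Of these 8, 5 had no peak in MUT 29, 2 none in MUT 28 and 1 none in MUT 26.

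Of the 890 regions, 645 had a gene end within 50 kb, and these fell to 605 genes, 567 with 1 region, 36 with 2 and 2 with 3 (Lmnb1 and Sipa1l2). Such a link is by distance alone and names no target gene. Over all genes, 1.55% of linked regions were gained, and the shares in gene lists are read against that. The lists were drawn up with earlier results of these data known, and the lipid and xenobiotic list holds genes chosen from such results, so its share is not independent evidence.

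Of 49 regions linked to chaperones and co-chaperones of the HSF1 response 2 were gained, at Bag3 and Dnajb4. This is 4.08%, with an exact interval of 0.498 to 14.0% that contains the 1.55% of all genes. Of 10 regions linked to the HSF family 0 were gained, which allows up to 30.8% (exact interval). Bag3 encodes a co-chaperone of HSP70. Its region (chromosome 7, 128528230 to 128528533) was 260, 265, 242 and 294 bp long and low in each list, at a mean percentile of 5.90. The region linked to Dnajb4, an HSP40 gene, lay inside the neighbouring gene Fubp1 at a mean percentile of 1.94. Of 56 regions linked to genes of the unfolded protein response and the integrated stress response, 1 was gained, that of Atf6b (295, 245, 396 and 275 bp).

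At NK cell genes the gained shares were 0 to 3.33%, and the exact interval of each of the 5 lists contains the 1.55% of all genes. Of 144 regions of cytotoxic effectors and cytokines none was gained, which allows a share of up to 2.53% (exact interval) and so does not separate these genes from the 1.55% of all genes. Activating receptors and adaptors had 2 of 110, at Cd244a and at Tyrobp, the gene of the adaptor DAP12. Lost regions in this list numbered 4, and Cd244a was also among their genes. Inhibitory receptors and checkpoints had 3 of 90, at Klri2, Lilrb4a and Ctla4, all 3 of them in exactly 3 MUT libraries. Lineage transcription factors had 5 of 330, at Runx3, Ikzf2, Ikzf3, Bcl11b and Myb, again each in exactly 3 libraries. Cytokine receptors and JAK-STAT genes had 4 of 199, all in all 4 MUT libraries, at Il2ra (the high-affinity interleukin-2 receptor chain), Tgfbr1 and a pair in Jak1. The stronger Jak1 region (chromosome 4, 101225916 to 101226509) had 502, 594, 517 and 403 bp at a mean percentile of 62.5. The other (101227105 to 101227574) had 470, 415, 335 and 342 bp at 47.7. Jak1 was the only gene of these NK lists with a gained region above a mean percentile of 30. By the mirror rule, inhibitory receptors and checkpoints had 2 lost regions and lineage transcription factors 3. Cytokine receptors and JAK-STAT genes had 2, and cytotoxic effectors and cytokines 0. Over all genes, 234 of 41647 linked regions were lost.

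In the remaining lists other than lipid and xenobiotic genes, the exact interval of each share contains 1.55%. Homing and adhesion genes had 4 of 193 (2.07%), with 2 each at Ly6e and Emb. AP-1 and immediate early genes had 2 of 109 (1.83%), at Junb and Mycl, and interferon-stimulated genes 1 of 38 (2.63%), at Usp18. Of the lipid and xenobiotic list 9 of 47 regions were gained (19.1%, exact interval 9.15 to 33.3%). None was lost, where 234 of 41647 linked regions were lost over all genes. The 9 are named here. These were at Cyp2j6 and Cyp2j9 (2 each), Nnmt (2), Lpl, Mttp and Scd1, which encodes a fatty acid desaturase. The region linked to Scd1 had 216, 403 and 259 bp and no peak in MUT 29. The list genes of T cells, B cells, basophils and mast cells, and erythroid cells and platelets had 0 of 31, 17, 19 and 9 regions gained, which allows up to 11.2, 19.5, 17.6 and 33.6%. Myeloid and dendritic cell genes had 1 of 21 (4.76%), at Flt3.

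Chromatin beside the gained regions was tested by peak length, at regions that the rule did not select. The rule limits this length for close neighbours, because a WT peak that reached a gained region would have merged with it. Of the 890 gained regions, 57 lay within 200 bp of a WT peak. For each of the 34461 regions open in all 8 libraries, the summed peak length was compared on a median-centred log2 scale with limma's moderated test, and 27 (0.0783%) passed at a Benjamini-Hochberg adjusted p below 0.05, 17 longer and 10 shorter in MUT. The open region nearest to each gained region, up to 50 kb away, gave 725 flanking regions. Of these, 1 was longer in MUT (0.0493% of all regions tested were) and 0 were shorter (0.029%). At an unadjusted p under 0.05 there were 84 (11.6%), 55 longer and 29 shorter, against 9.69% of all regions tested (1480 longer, 1860 shorter). Without centring the flanking regions had 70 longer and 16 shorter, and all regions 2123 longer and 934 shorter. The median log2 difference, MUT minus WT, was -0.0044 for the flanking regions and -0.018 for all regions. Without centring these medians were 0.024 and 0.0098, so their sign depends on the centring.

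The flanking region that passed lay in the interferon gene cluster, 2539 bp from the first of the 3 gained regions beside Ifnz (chromosome 4, 88757048 to 88757954, at the end of a predicted gene). Its peaks were 221, 216, 256 and 223 bp long in WT and 873, 882, 900 and 783 bp in MUT, with no overlap between the genotypes. The means were 229 ± 18.2 bp and 860 ± 52.2 bp (SD, n = 4 each), a log2 difference of 1.88 (SE 0.0688, limma adjusted p = 5.65e-05). The highest adjusted p over the alternatives, which include leaving out each library, was 0.00133. The uncertainty over near-identical gene copies applies here too. Of the 27 regions, 4 (14.8%) lay within 50 kb of a gained region, against 9.05% of all regions tested. A region between the gained ones on chromosome 4 (32118900 to 32119306) had 250, 263, 259 and 269 bp in WT and 407, 405, 382 and 390 bp in MUT (log2 difference 0.58, SE 0.0597, limma adjusted p = 0.0186). It was 19077 bp from the nearest gained region, and it did not pass without WT 7 or without MUT 26 (limma adjusted p of at most 0.0556). The other 2, named after their values were seen, were linked to Pltp, the phospholipid transfer protein gene (longer in MUT, limma adjusted p = 0.00674, but 0.792 when only the longest peak of a region was measured), and to Tex14 (shorter in MUT, limma adjusted p = 0.00954). The Tex14 region lay 2791 bp from a gained region, though it was not the open region nearest to one. It passed under every alternative (highest limma adjusted p = 0.0458). Within 10 kb of a gained region, 1 longer and 1 shorter region passed.

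At 3 other loci, the flanking open regions described here did not pass the test. In Spink13 the flanking region (chromosome 18, 62726658 to 62727289) had 321, 438, 352 and 263 bp in WT and 518, 501, 632 and 568 bp in MUT. The groups did not overlap, but the log2 difference of 0.68 (SE 0.15) did not pass (limma adjusted p = 0.230). Of the pair flanking the Jak1 regions, the one at 101213446 to 101213939 had 398, 416, 481 and 425 bp in WT and 424, 423, 408 and 393 bp in MUT (limma adjusted p = 0.739). In Lmnb1 a flanking region (chromosome 18, 56737247 to 56737818) was shorter on average in MUT, with 567, 561, 554 and 564 bp in WT and 433, 503, 516 and 456 bp in MUT, again without passing (limma adjusted p = 0.199). These flanking regions were picked after their values were seen.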

How the data were processed

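ATAC-seq peak lists of 8 mice, 4 WT and 4 MUT, were used as deposited, 1 list per library. Each entry has a position, a name and a positive score of no stated kind, which is the authors' own value per peak and was used only to rank peaks within its list. Per the submitters' processing notes, Bowtie2 2.3.4.1, Trimmomatic, DiffBind 3.0.12 and DESeq2 are listed without their roles, and the build was mm10 (GRCm38). For the peak caller, its threshold, the filtering of reads and a transposase shift, the method is not given in the sources used here. Lists as deposited hold no counts, so depth is unknown, and a missing peak is one that was not called.

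Peaks were merged at 1 bp of overlap. Genes came from RefSeq (GRCm38.p6, 21887 protein-coding genes, without strand), promoter windows and microRNAs from its sequence tables. Genome sequence was not used here. Each region was linked to the nearest end of a protein-coding gene within 50 kb. Log2 summed lengths of regions open in all 8 libraries were compared with limma 3.58.1 (R 4.3.3, trend, centred on each library's median, Benjamini-Hochberg adjustment). List lengths were compared by exact permutation, and shares have 95% Clopper-Pearson intervals. Python 3.11.15 and scipy 1.17.1 were used. The limma step was tested on simulated data with 4 against 4 libraries. Of 100 changes planted at a log2 difference of 0.3 it recovered 26%, and of 100 at 0.6 it recovered 62%, with 4 false calls. Changes of these sizes can therefore be missed by the test.

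Named regions are those in all 4 MUT libraries at gene ends, the 10 highest-scoring and 5 longest in all 4, the 10 highest-scoring in exactly 3 and the 10 highest-scoring of these at gene ends, those linked to genes of 17 lists (305 of 307 entries matched), groups of 3 or more, and flanking regions past the threshold. Predicted genes were counted and not named, and 2 genes that the rules cover are not reported here. The regions, lists and rules were chosen with earlier results of these data known. Alternatives were the upper 50% of each list, equal list lengths, 100 bp of overlap, merging up to 200 bp apart, autosomes only, other gene-end limits, other settings of the limma fit, and leaving out each library.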

Additional observations from a re-analysis of the deposited data

Results flagged for a closer look

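In groups of 4 libraries, 38 sets of values were checked for a library standing apart from the others (Dixon's test at 95%), and 5 stood apart. For normally distributed values, chance alone gives about 1 in 20 such groups. Peak lengths have a floor of 200 bp, so this rate need not hold for them. MUT 29 had 2.73% of its gained peaks in the upper 50% of its list, against 5.47% in the next lowest library. At Shisa4 the peak was 489 bp in MUT 28 and 216 bp in the next longest library. At Glrx2 it was 251 bp in MUT 27, against 203 bp. In the region nearest to Map3k7 it was 459 bp in MUT 28, against 424 bp. In the longest gained region, on chromosome 4 at 32164355 to 32165283, it was 660 bp in MUT 29, against 891 bp in the next shortest library.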

How the results depend on the processing

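Under the alternatives that were run, gained regions outnumbered lost ones in every setting, but some directions of peak-length results changed. The median log2 length difference of flanking regions turned from -0.0044 to 0.024 without centring, and that of all regions from -0.018 to 0.0098. The counts over all regions at an unadjusted limma p under 0.05 turned too without centring. They went from 1480 longer and 1860 shorter to 2123 longer and 934 shorter. At the adjusted threshold, 17 longer and 10 shorter became 12 and 12 without MUT 26. With the upper 50% of each list, 520 regions were gained, 312 of them in exactly 3 MUT libraries, and only 27 of the 520 were among the 890 gained from the whole lists. The share of gained regions at gene ends was 5.51% within 500 bp and 14.3% within 2000 bp. Leaving out 1 library at a time, with at most 1 MUT library allowed to lack a peak, gave 1041 to 1708 gained regions, 346 to 522 in all MUT libraries left and 695 to 1186 in all but 1 of them, and 368 to 819 lost regions. The rule is looser with fewer libraries, so these counts rise by construction. The number of gained regions was over 1.5 times as high without WT 6 (1379), MUT 26 (1598), MUT 28 (1484) or MUT 29 (1708). Without WT 6, MUT 26 or MUT 29 the number in all MUT libraries did so too (502, 452 and 522), and without MUT 26, 28 or 29 the number in all but 1 (1146, 1068 and 1186). The number of lost regions did so without any 1 of the 4 WT libraries (548 to 819), MUT 27 (657) or MUT 28 (460). The ratio of gained to lost regions, 2.92 with all peaks, moved by over 1.5 times with equal list lengths (1.46). It also did so without WT 4 (1.88), WT 6 (1.86), WT 7 (1.27) or MUT 27 (1.86). The limma count of 27 ran from 13 (without WT 7) to 44 (without MUT 29), with 43 without WT 5 and 42 without WT 6. The count of flanking regions ran from 1 to 4, with 4 without WT 5 and 2 without MUT 29. The difference in list length ran from 544 to 2309 peaks. No paired analysis was possible because the replicate numbers of WT (4 to 7) and MUT (26 to 29) share none. Depth is unknown, and most gained peaks stand near the low end of their lists.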
